A study of Mus musculus with 6 samples.

Results

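The genes described here are the matrix metalloproteinases (Mmp), the related membrane-bound and secreted proteinases of the Adam and Adamts families, the tissue inhibitors of metalloproteinases (Timp), and the plasminogen activators with their receptor (Plat, Plau, Plaur). They were chosen by symbol alone: every probe whose gene symbol on the array is Mmp, Timp, Adam or Adamts followed by a digit, or is Plat, Plau or Plaur. This gave 138 probes for 77 of the 17658 genes with a symbol on the array. Their RNA was measured on 6 Illumina mouse bead arrays in skin papillomas, benign epidermal tumours, taken from mice with intact Atf2 (wild type) or without it (knockout). Atf2 encodes a DNA-binding protein of the bZIP class. All mice were of mixed FVB and C57bl6 background, bore papillomas at about 9 months of age, and had received 1 dose of the mutagen DMBA and then the tumour promoter TPA for 30 weeks. RNA from papillomas of 2 wild-type mice was combined into 1 pool and RNA from those of 3 knockout mice into another, and each pool was run on 3 arrays. The sources used here do not say how, or in which cells, Atf2 was inactivated.

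Arrays of the same pool are technical replicates, so every SD, SE and p-value here measures technical spread between arrays, and the comparison is of 2 RNA pools. Genotype and position on the chip cannot be told apart, since the first 3 positions held the wild-type pool. The knockout arrays were dimmer. Wild-type arrays had a median raw intensity of 135.8 to 148.2, and knockout arrays 1, 2 and 3 had one of 135.5, 124.5 and 109.9. From 29.2% to 34.5% of the 46116 probes exceeded the background, taken as the mode of an array's raw intensities plus 3 SDs of the values below that mode. With 3 arrays a pool, their number limits the precision. Signed values are differences in normalized log2 intensity, knockout pool minus wild-type pool. Raw intensities are given as deposited, so a gene with like raw values in both pools can have a positive normalized difference. Of the 4 probes of Atf2 itself, 3 were not above background on any array. The remaining one (2260348) read 185, 176 and 186 for the wild-type pool and 171, 133 and 103 for the knockout pool, a difference of -0.28 (SE 0.13, limma adjusted p = 0.109). Whether these probes lie in the deleted sequence is unknown here, so their signal is no check of the labelled genotypes.

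Metalloproteinases are zinc enzymes, made mostly as inactive precursors, that cut collagens, elastin, proteoglycans and membrane-anchored growth factors; the Timps block them. Plasminogen activators turn plasminogen into plasmin, which degrades fibrin and activates several Mmp precursors. In skin these systems act in wound repair and in tumour growth, and TPA is known to induce several of them through AP-1, the Jun and Fos dimer that binds the TPA response element in many Mmp promoters. ATF2 is a partner of Jun and binds the related cyclic AMP response element.

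The promoters of 4 neighbouring Mmp genes and of Plaur are shown because the measured differences of these genes fall on both sides of 0 while each window holds the core AP-1 letters. Each run is the 250 bases before the annotated start in RefSeq, build GRCm38.p6, read 5′ to 3′ on the plus strand, where all of these genes lie. Capitals mark TGACTCA or its reverse complement TGAGTCA. The windows are chr9:7272264-7272513 for Mmp13, chr9:7347124-7347373 for Mmp12, chr9:7445572-7445821 for Mmp3, chr9:7502092-7502341 for Mmp10 and chr7:24462233-24462482 for Plaur.
Mmp13: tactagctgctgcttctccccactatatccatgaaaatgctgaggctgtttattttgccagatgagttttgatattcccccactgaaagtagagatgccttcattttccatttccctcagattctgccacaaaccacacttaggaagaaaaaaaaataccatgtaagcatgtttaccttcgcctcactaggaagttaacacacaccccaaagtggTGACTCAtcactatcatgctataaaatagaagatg
Mmp12: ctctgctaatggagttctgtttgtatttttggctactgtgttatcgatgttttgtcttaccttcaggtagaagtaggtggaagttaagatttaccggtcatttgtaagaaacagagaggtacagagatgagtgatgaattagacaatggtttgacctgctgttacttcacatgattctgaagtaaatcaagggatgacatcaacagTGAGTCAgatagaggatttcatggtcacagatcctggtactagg
Mmp3: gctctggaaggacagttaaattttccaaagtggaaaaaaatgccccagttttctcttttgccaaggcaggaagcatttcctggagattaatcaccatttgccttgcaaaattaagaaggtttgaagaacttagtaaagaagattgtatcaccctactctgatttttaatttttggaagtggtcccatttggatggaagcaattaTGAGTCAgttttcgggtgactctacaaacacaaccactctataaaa
Mmp10: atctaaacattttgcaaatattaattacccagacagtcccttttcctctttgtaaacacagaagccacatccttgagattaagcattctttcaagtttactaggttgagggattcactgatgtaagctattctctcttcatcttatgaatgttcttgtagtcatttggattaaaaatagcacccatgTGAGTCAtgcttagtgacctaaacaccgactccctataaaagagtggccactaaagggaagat
Plaur: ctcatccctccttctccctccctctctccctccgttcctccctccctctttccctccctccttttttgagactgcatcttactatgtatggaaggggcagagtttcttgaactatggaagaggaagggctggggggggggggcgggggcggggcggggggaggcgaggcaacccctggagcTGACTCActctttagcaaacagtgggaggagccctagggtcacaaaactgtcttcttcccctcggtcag

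The first capital letter lies 35 bases before the start in Mmp13, 44 in Mmp12, 46 in Mmp3, 63 in Mmp10 and 69 in Plaur. A second annotated start of Mmp12 had no such letters in its window. Promoter windows were found for 47 of the 77 genes, which are not the same 47 as the tested genes below. Plat, Plau, Mmp9, Mmp2 and Adam12 were among those without a window, so their promoters were not searched. Both strands were searched for TGACTCA, and 10 of the 47 genes held it in at least 1 window, against 5.16% of the 27025 genes with a window. Of the 10, 7 belong to the Mmp cluster of chromosome 9 described below, where 9 genes had a window, and the other 3 were Adam19, Adam29 and Plaur. The cyclic AMP response element TGACGTCA, which cannot hold the AP-1 letters within it, was in none of the 52 member windows and in 1.55% of 32851 windows in all. A match describes letters in a window and does not show binding.

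Of the 77 genes, 47 had a probe bright enough to be tested, meaning a mean normalized intensity above the median of all probes. The 77 untested probes were not above background on any array, and they include every probe of Mmp1a, Mmp1b, Mmp7, Mmp16, Mmp21, Mmp25, Mmp28, Timp4, Adamts3, Adamts9, Adamts14 and of most Adams known from testis. Among the 61 tested probes, 32 were above background on all 6 arrays, 17 on none, 3 in the wild-type pool only and 2 in the knockout pool only. A gene is represented by its tested probe of highest mean signal, and 29 of the 47 genes had a representing probe above background on all 6 arrays.

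Metalloproteinase and plasminogen activator genes moved in both directions. With a threshold of a limma adjusted p under 0.05 and at least 2-fold, 1 of 47 genes rose in the knockout pool, Mmp12, and 1 fell, Plat. Over all 12096 tested genes 1.12% rose and 2.48% fell by this rule, so both counts are close to the background. At a lower limit of 1.5-fold with the same adjusted p, Mmp12, Plaur and Adam15 were higher and Plat, Mmp9, Mmp10, Mmp3 and Adam12 lower. These 3 and 5 of 47 genes stand beside backgrounds of 6.07% and 6.49%. When the mode of an array was subtracted in place of the normexp correction, 2 of 34 tested members rose and 4 fell past 2-fold, beside 3.85% and 4.96% of all genes tested that way. The median difference was -0.03 over the 47 genes, from -1.23 to 1.52, and 0.08 over all tested genes. The median of the members lay within 0.1 of 0 under every alternative run and was above 0 with scaling to the 75th percentile (0.09) and without knockout array 1 (0.02). With 75th percentile scaling the median over all tested probes also rose, from 0.05 to 0.13.

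**Figure D1:**
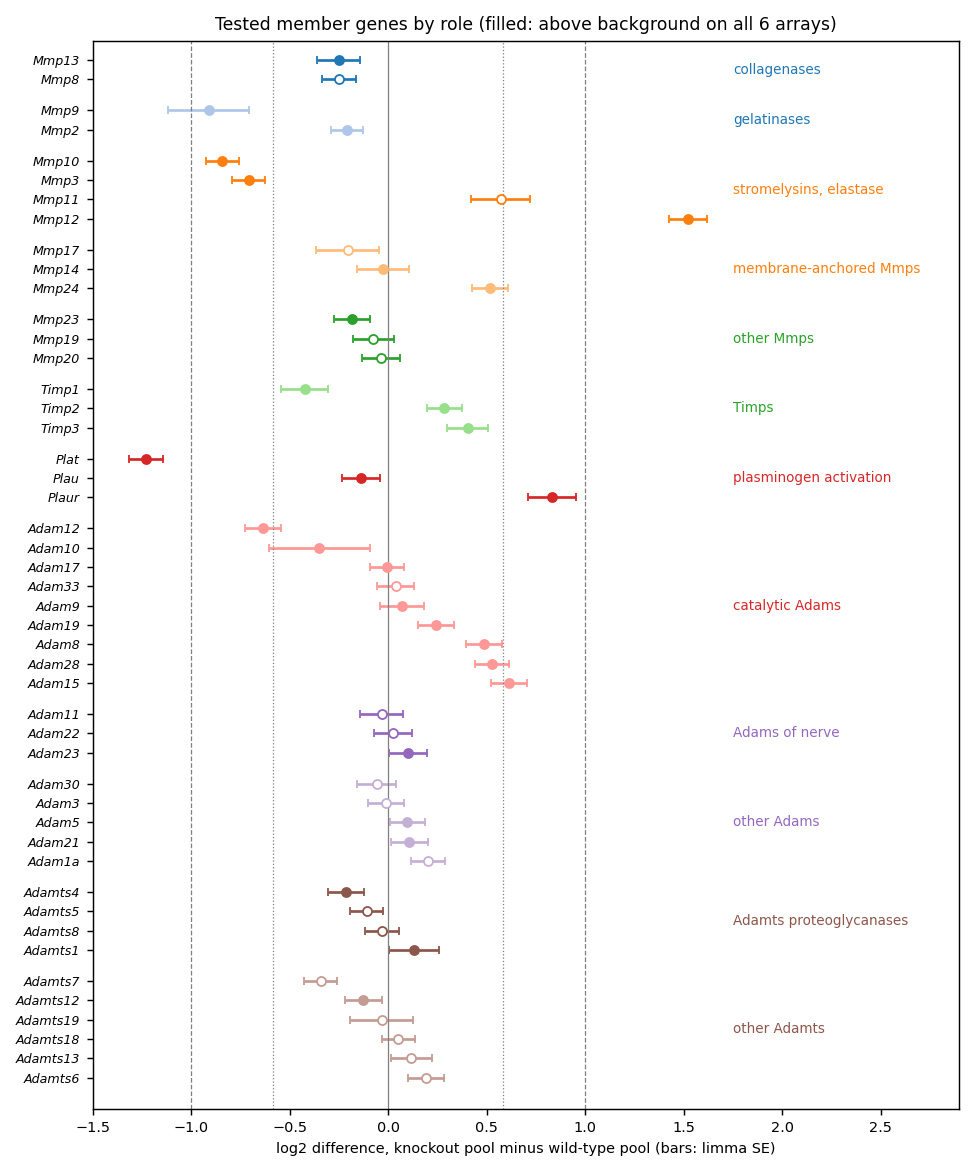
Normalized log2 difference of each of the 47 tested genes, grouped by role, with limma SE bars. Filled points are above background on all 6 arrays, dashed lines mark 2-fold and dotted lines 1.5-fold. Mmp12 (1.52) and Plat (-1.23) lie outside the dashed lines.

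Among the stromelysins and the macrophage elastase, Mmp12 and Mmp11 had positive and Mmp10 and Mmp3 negative differences. Mmp12, which encodes the elastin-degrading enzyme of macrophages, read 284, 334 and 308 in the wild-type pool and 793, 688 and 512 in the knockout pool. All 3 knockout arrays lay above all wild-type arrays, and the gene rose 2.87-fold (log2 1.52, SE 0.10, limma adjusted p = 1.24e-07). Mmp10, stromelysin-2, an enzyme made by keratinocytes at wound edges, read 921, 910.4 and 878 in the wild-type pool and 516, 452 and 341 in the knockout pool. The pools did not overlap, and the difference of -0.84 (SE 0.08, adjusted p = 6.48e-06) stayed short of 2-fold. Mmp3, stromelysin-1, was lower on both of its probes without overlap between the pools. The representing probe read 389, 405 and 410 in the wild-type pool and 219, 212 and 181 in the knockout pool (log2 -0.71, SE 0.08, adjusted p = 2.35e-05). The other Mmp3 probe had a mean of 273 ± 42.9 against 171 ± 14.3 (SD, n = 3 arrays each) and a difference of -0.41 (SE 0.12). Mmp11, stromelysin-3, chosen after its values were seen, was above background on 1 wild-type and 2 knockout arrays, and its value of 0.57 (SE 0.15, adjusted p = 0.00859) lay just inside 1.5-fold.

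Because Mmp12 is a macrophage gene, the macrophage markers were read beside it. Of 7 tested markers 0 rose and 1, Lyz2, fell (3 higher and 1 lower whatever the fold where limma's p before adjustment was under 0.05, a rule met by 29.7% of all tested genes upward and 18.1% downward), and their median was 0.00 with all 7 above background. Their summed raw intensity was 3088 to 3237 on the wild-type arrays and 1947 to 2790 on the knockout arrays. The complement genes C1qa (0.47) and C1qb (0.32) and the receptor gene Mrc1 (0.50) had positive differences under 1.5-fold. In the same list C1qc (-0.03), Adgre1 (0.00) and Cd14 (-0.21) missed limma's test, and Lyz2 was at -1.40. The part of macrophage number in the Mmp12 value was not tested, and in pooled tissue RNA a change in the share of a cell type and a change in RNA per cell cannot be told apart.

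**Figure D2:**
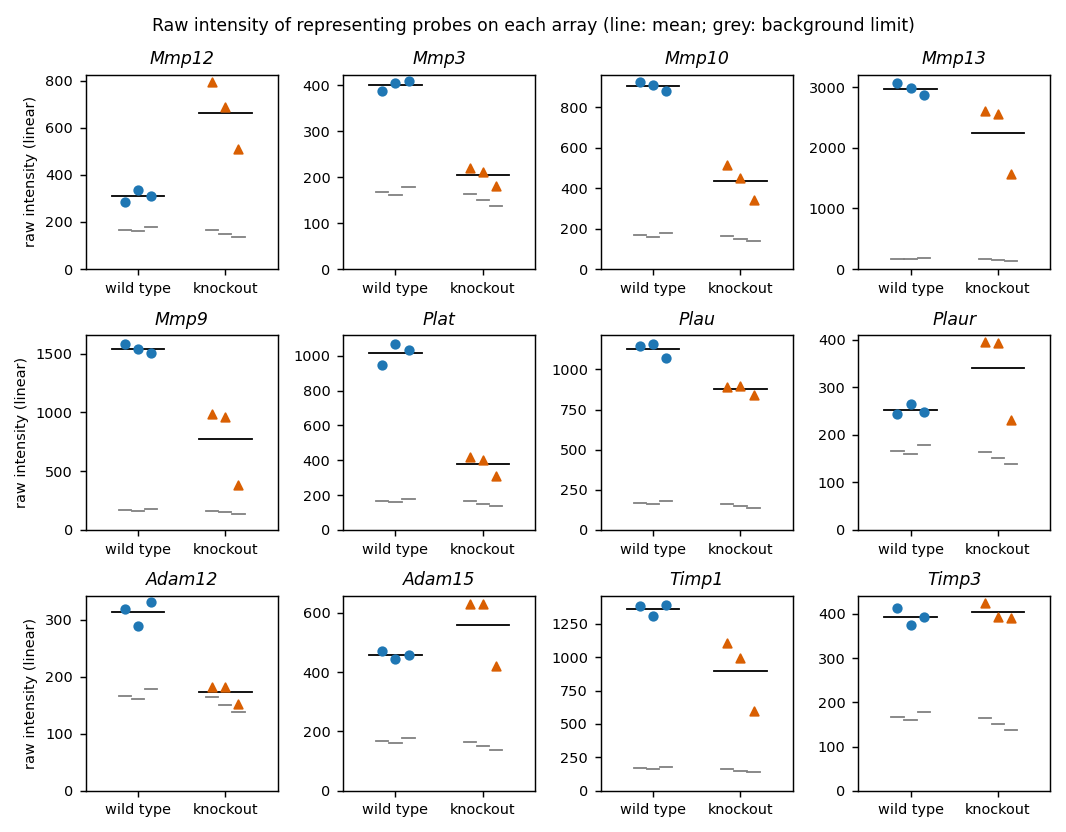
Raw intensity (linear scale) of 12 representing probes on the 3 wild-type arrays (circles) and 3 knockout arrays (triangles), with the mean as a black line and each array's background limit as a grey dash. Knockout array 3, the rightmost triangle, was the lowest of its pool for each of the 12 genes.

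Collagenases and gelatinases had negative differences on every tested probe. The 2 collagenase genes tested were Mmp13 and Mmp8, and the latter was not above background on any array. Mmp13, collagenase-3, a collagen-cutting enzyme of stroma and tumours, gave different values on its 2 probes, both above background on all 6 arrays. The representing probe (510471) read 3060.1, 2987 and 2867 in the wild-type pool and 2612, 2550.0 and 1564 in the knockout pool, a difference of -0.25 (SE 0.11) that missed limma's test (adjusted p = 0.087). The other probe (3940097) read 408, 435 and 426 in the wild-type pool and 189, 174 and 177 in the knockout pool, and fell by 1.02 on the log2 scale (SE 0.10, adjusted p = 6.51e-06). Both probes were annotated to the same transcript record. The second one lay at the 2-fold limit and ran from -1.62 to -0.82 over the 16 alternatives. It ended inside the limit in 6 of them, among them the authors' normalized values (-0.82) and 3 fits that left out an array. Those fits left out the wild-type pool's second array (-0.997) or the knockout pool's first (-0.954) or second (-0.962). Its knockout readings were close to the background limits of those arrays (164, 150 and 138). Counted by any tested probe, 2 of 47 member genes fell, Plat and Mmp13, beside 5.38% of all tested genes.

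Mmp9, gelatinase B, a product of neutrophils, macrophages and keratinocytes, read 1584, 1541 and 1506 in the wild-type pool and 985, 959.8 and 385 in the knockout pool. The pools did not overlap, but knockout array 3 lay far below the others. The difference was -0.91 (SE 0.21, limma adjusted p = 0.00354), and it was -0.58 without knockout array 3, -1.06 without knockout array 1 and -1.08 without knockout array 2. Mmp2, gelatinase A, a fibroblast product named after its values were seen, read 1126, 1126 and 1135 in the wild-type pool and 917, 919 and 673 in the knockout pool. Its normalized difference of -0.21 (SE 0.08) missed the test (adjusted p = 0.0632).

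Markers of cell types that tumour tissue can hold moved unevenly, and their shares read against 1.12% higher and 2.48% lower past 2-fold, and 29.7% higher and 18.1% lower at an unadjusted limma p under 0.05, over all tested genes. Of 7 tested fibroblast markers 0 rose and 3 fell, Col1a1, Col3a1 and Lum (0 higher and 6 lower at the unadjusted p), with a median of -0.72, none at background, and a summed raw intensity of 8719 to 9648 in the wild-type pool and 3629 to 5033 in the knockout pool. Of 5 skeletal muscle markers 0 rose and 2 fell, Acta1 and Myl1 (0 higher and 5 lower at the unadjusted p), with a median of -0.59 and sums of 2315 to 2488 and 854 to 1405. Of 5 tested endothelial markers 0 rose and 0 fell (0 higher and 2 lower at the unadjusted p), with a median of -0.20. Their sums were 1722 to 1729 and 1043 to 1459.8. Tie1 was at -0.75 (SE 0.20), with knockout readings of 185.5, 157 and 89. Vwf was at -0.35, Cdh5 at -0.20, Pecam1 at 0.10 and Kdr at 0.15. Kdr and Tek were not above background. The fibroblast, skeletal muscle and endothelial lists had lower raw sums on every knockout array. The macrophage and mast cell lists did too. So did all tested genes together (1.18893e+07 to 1.2009e+07 in the wild-type pool, 9.14721e+06 to 1.18853e+07 in the knockout pool).

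Of 7 tested neutrophil markers 2 rose, Retnlg and Ltf, and 0 fell (2 higher and 1 lower at the unadjusted p), with a median of 0.08. Their sums were 55985 to 58115 in the wild-type pool and 60873 to 68386 in the knockout pool. Most of these sums came from S100a8 (raw means of 26916 and 25649) and S100a9 (22261 and 20415). Ltf had raw means of 5697 and 16252. Ngp and Camp were not above background. The receptor gene Cxcr2, of the same list, was at -0.95. Of 4 erythrocyte markers 2 rose, Hba-a1 and Alas2, and 0 fell (3 higher and 0 lower at the unadjusted p), with a median of 0.86 and sums of 25619.5 to 26812 and 38464 to 43309.5. Of 6 basal keratinocyte markers 1 rose, Krt15, with a median of 0.18, all above background, and sums of 68770.2 to 70743 and 59962 to 71246. Of 5 suprabasal markers 1 rose, Krt10, and 1 fell, Ivl, with a median of 0.23 and sums of 69808.5 to 71621 and 75724 to 91443. In the mast cell list (4 tested) and the T cell list (3 tested) 0 rose and 0 fell past 2-fold, with 1 higher and 1 lower, and 2 higher and 0 lower, at the unadjusted p. The part of these cell types in the values of Mmp2, Mmp3, Mmp9, Mmp10, Mmp13 and Plat was not tested.

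On chromosome 9 the Mmp genes form a run of 10 with no other protein-coding gene between them in RefSeq: Mmp13, Mmp12, Mmp1b, Mmp3, Mmp1a, Mmp10, Mmp8, Mmp27, Mmp20 and Mmp7. Mmp12 stood apart in this run. Its direct neighbours were Mmp13 (-0.25 and -1.02 on its probes) and Mmp1b, which was at background. Mmp3 and Mmp10, further along, were at -0.71 and -0.84. The windows of Mmp13, Mmp12, Mmp3 and Mmp10 were printed above because they hold the AP-1 letters, so that they share them is no result. Mmp8 (-0.25) and Mmp20 (-0.04), also tested in this run but at background, had no such letters in their windows. The part of these letters in the differences was not tested.

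**Figure D3:**
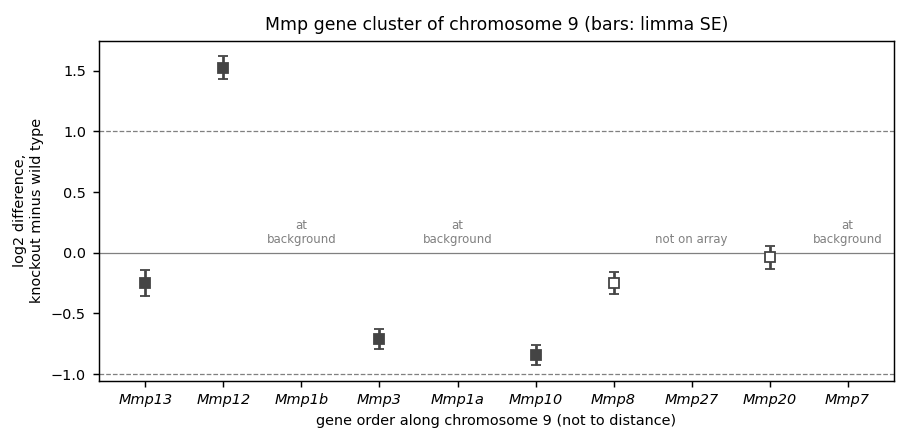
Normalized log2 difference of the chromosome 9 Mmp genes in their order on the chromosome (x axis not to distance), with limma SE bars. Filled squares are above background on all 6 arrays, and the dashed lines mark 2-fold. Only Mmp12 (1.52) lies above 0 among the 6 genes tested there.

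Of the membrane-anchored Mmps, Mmp14, which activates the Mmp2 precursor at the cell surface, read 1940, 1921 and 2018 in the wild-type pool and 2139, 2022 and 1120.2 in the knockout pool. The pools overlapped, and the difference was -0.03 (SE 0.13, limma adjusted p = 0.899). Mmp24, best known from the nervous system, was at 0.52 (SE 0.09, adjusted p = 0.000651) on its brighter probe, inside 1.5-fold, and at 0.00 on a probe at background. Mmp23, a membrane-anchored enzyme of unusual structure, was at -0.18 (SE 0.09) and missed the test (adjusted p = 0.136). Mmp17, also membrane-anchored, and Mmp19 and Mmp20, which are not of that group, lay between -0.20 and -0.04. None of them was above background on all arrays.

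The Timps differed in sign among themselves, and the 3 tested ones lay within 1.5-fold. Timp1, the inhibitor induced in inflamed and wounded tissue, read 1386, 1305 and 1394 in the wild-type pool and 1105, 996 and 594 in the knockout pool. The pools did not overlap, with a difference of -0.42 (SE 0.12, limma adjusted p = 0.014) that was -0.28 without knockout array 3. Timp2, which links Mmp14 to the Mmp2 precursor, read 1172, 1396 and 1255 in the wild-type pool and 1529.9, 1379 and 1102 in the knockout pool. Its raw values overlapped, its normalized values did not, and the difference was 0.29 (SE 0.09, adjusted p = 0.0213). Timp3, the matrix-bound inhibitor that also blocks Adam17, read 414, 374 and 392 in the wild-type pool and 425, 393 and 392 in the knockout pool. These raw values overlapped almost fully, and the normalized difference was 0.40 (SE 0.10, adjusted p = 0.00819). Timp1 and Timp2 each missed the adjusted p of 0.05 in 3 of the 16 alternatives, while Timp3 stayed under it in all 16. Timp4 was not above background on any array.

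In the plasminogen activator system Plat was lower and the receptor gene Plaur higher in the knockout pool, while Plau missed the test. Plat, tissue plasminogen activator, read 945, 1070.4 and 1030.4 in the wild-type pool and 419, 404 and 309 in the knockout pool. The pools lay far apart, and the gene fell 2.35-fold (log2 -1.23, SE 0.09, limma adjusted p = 3.06e-07). It passed the threshold in all 16 alternatives, from -1.45 to -1.12. Its other tested probe stayed at background throughout. Plau, urokinase, the activator that acts at the cell surface, read 1146, 1161 and 1073 in the wild-type pool and 890.2, 899 and 841 in the knockout pool. The raw values did not overlap but the normalized ones did, and the difference of -0.14 (SE 0.10) missed the test (adjusted p = 0.312). Plaur, the urokinase receptor, read 244, 266 and 248 in the wild-type pool and 396, 393 and 230.4 in the knockout pool. Knockout arrays 1 and 2 stood above the wild-type arrays and array 3 below them in raw intensity, while after normalization the pools did not overlap. Its difference of 0.83 (SE 0.12, adjusted p = 0.000148) was 1.00 without knockout array 3, just under 2-fold, and 1.26 when the background mode of each array was subtracted.

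Genes that act with these proteinases but lie outside the naming rule were read beside the members. Of 22 tested partners 0 rose and 1 fell, with a median of -0.01, beside 1.12% and 2.48% of all tested genes. Past 1.5-fold 0 of the 22 were higher and 3 lower, beside 6.07% and 6.49% of all tested genes. Without a fold limit, an unadjusted limma p under 0.05 was met by 6 higher and 7 lower partners, beside backgrounds of 29.7% and 18.1%. The fall past 2-fold was Serpinb2, an inhibitor of both plasminogen activators that is abundant in keratinocytes and macrophages. It read 3525, 3378 and 3471 in the wild-type pool and 1098, 1013 and 833 in the knockout pool (log2 -1.64, SE 0.08, limma adjusted p = 1.69e-08). The arrays of the pools were well separated. Other plasminogen genes were inside 1.5-fold, among them the plasmin-binding pair Anxa2 (-0.13 on its brightest probe) and S100a10 (-0.14), and Plg itself was not above background. A much dimmer Anxa2 probe (102060497), above background on all arrays and annotated to a cDNA clone, was at 0.33 (SE 0.10, adjusted p = 0.018). Pcsk6, a convertase that processes proprotein precursors, was at -0.79 (SE 0.10, adjusted p = 4.74e-05). The brightest probe of Bmp1, the procollagen C-proteinase, was at -0.80 (SE 0.08), while another above background on all arrays (380594) was at 0.08 (SE 0.12). Rhbdf2, which carries Adam17 to the cell surface, was at 0.58 (SE 0.09, adjusted p = 0.000233).

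The catalytic Adams of somatic tissues were all tested, and 0 of the 9 genes passed 2-fold, while 4 were higher and 1 lower at an unadjusted limma p under 0.05, beside 29.7% and 18.1% of all tested genes. Adam17 and Adam10, the main sheddases of growth factor and cytokine precursors, gave no difference past the test. Adam17 had raw means of 879 ± 25.2 and 746 ± 153 (SD, n = 3 arrays each) and a normalized difference of -0.01 (SE 0.09, limma adjusted p = 0.961). Adam10 read 853, 893 and 459.7 in the wild-type pool and 666, 338 and 427 in the knockout pool. Its arrays disagreed within each pool, and the difference of -0.35 had an SE of 0.26 (adjusted p = 0.322). Both genes are named after their values were seen. Adam9, another sheddase, was at 0.07 (SE 0.11).

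Adam12 and Adam15 were the Adams past 1.5-fold. Adam12, an enzyme of mesenchymal and tumour cells, read 319, 289 and 331 in the wild-type pool and 183, 183 and 152 in the knockout pool, near the background limit. The pools did not overlap (log2 -0.63, SE 0.09, limma adjusted p = 0.000146), and its other tested probe was at background. Adam15, a widely expressed Adam of epithelium and vessels, read 471, 446 and 458 in the wild-type pool and 632, 629.5 and 421 in the knockout pool. In raw intensity knockout arrays 1 and 2 lay above all wild-type arrays and knockout array 3 below them, and the normalized difference was 0.61 (SE 0.09, adjusted p = 0.0002). The other 2 tested Adam15 probes, annotated to cDNA clones and close to background, were at 0.17 and 0.09. Adam8, a leukocyte Adam, was at 0.49 (SE 0.09) and 0.42 (SE 0.08) on its 2 tested probes. Adam28, known from lymphocytes, was at 0.53 (SE 0.09) on the probe above background on all arrays. The other tested Adam28 probes, at or close to background, were at 0.11 and 0.03. Raw values of the Adam8 probes and the brightest Adam28 probe overlapped between pools, while their normalized values did not. Adam19 and Adam33 were at 0.24 and 0.04.

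**Figure D4:**
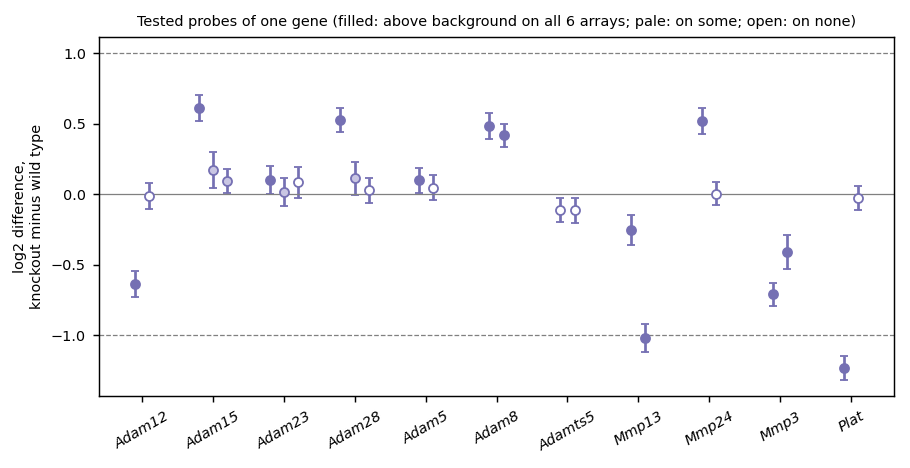
Normalized log2 difference of each tested probe of the 11 genes with more than 1 tested probe, ordered within a gene by wild-type raw intensity, with limma SE bars. Filled points are above background on all 6 arrays. The filled points lie at -0.25 and -1.02 for Mmp13, at -0.71 and -0.41 for Mmp3 and at 0.49 and 0.42 for Adam8.

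The Adams of nerve and testis and the Adamts family stayed within 1.5-fold on every tested gene. Adam23, a non-catalytic Adam of nerve, was at 0.10 and Adam21, known from testis, at 0.11. Of the aggrecan-cutting Adamts4, raw intensity was 278 ± 13.7 in the wild-type pool and 193 ± 24.8 in the knockout pool (SD, n = 3 arrays each), with a normalized difference of -0.21 (SE 0.09, limma adjusted p = 0.083). Adamts12, a secreted enzyme, was at -0.13 (SE 0.10). Adamts7 exceeded the background on the 3 wild-type arrays and on no knockout array, and so was at least 1.06-fold lower (adjusted p = 0.00583). The 10 tested Adamts genes ran from -0.34 to 0.19, and those of the procollagen N-proteinase group on the array were at background.

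**Figure D5:**
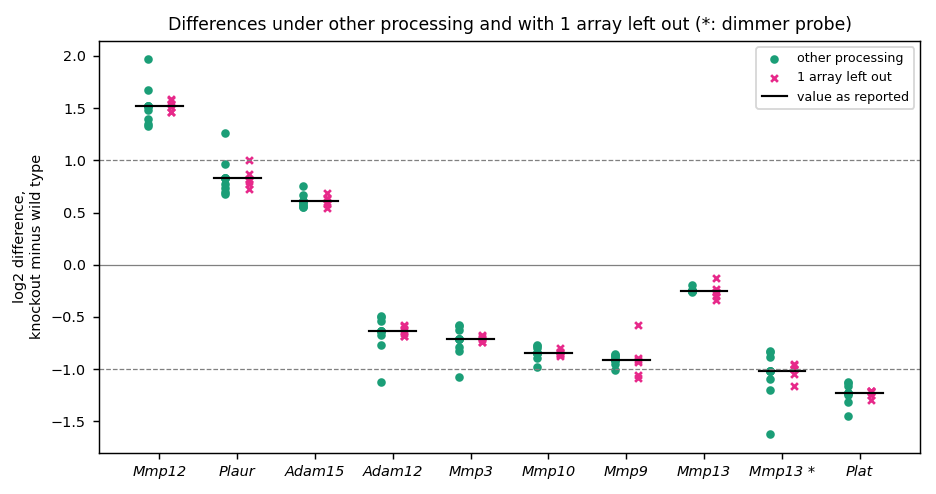
Normalized log2 difference of 10 probes as reported (black line), under other processing (dots) and with each array left out in turn (crosses). Dashed lines mark 2-fold. Mmp12 and Plat lie outside them throughout, while the dimmer Mmp13 probe (asterisk) and Mmp9 lie on both sides of the lower one. Adam12 and Mmp3 cross the lower line, and Plaur the upper one, only with each array's background mode subtracted.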

How the data were processed

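The deposited array files hold linear raw intensities, 1 per probe, per the file headers. The submitters' processing notes name BeadStudio 3. A second deposited table, in log2 units, has the same distribution in all 6 columns and keeps each array's rank order, so the authors had normalized it by a method that the labels do not state. The raw intensities were corrected with limma's normexp (offset 50, which shrinks differences of dim probes), converted to log2 and quantile-normalized (R 4.3.3, limma 3.58.1). The 23058 of 46116 probes above the median mean intensity were tested between the pools (lmFit, eBayes with an intensity trend, two-sided), with Benjamini-Hochberg adjustment over all of them. The array files used hold no detection p, so background was set from each array's mode, a rule that replaces detection calls. A probe above background in 1 pool only is given as a bound against the lowest normalized value above background. The fit was also run on simulated arrays, with noise from the spread of the wild-type arrays and changes planted only in probes bright enough to be tested. That run does not bear on dim probes or on differences between mice, and its outcome is not given here.

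Gene symbols come from the array annotation held by GEO: 29534 probes had 1 symbol, 11 several and 16571 none. Through Entrez identifiers 29476 symbols were looked up in RefSeq (GRCm38.p6) and 0 changed. Named genes are those with a probe past the threshold, the 12 largest differences with an adjusted p under 0.05 and above background in the brighter pool, the member of highest signal in each role group, genes with several tested probes of which 1 passed 1.5-fold, all Timps and Plat, Plau and Plaur. Partners are named if past the threshold or among the 4 largest differences. Members, lists, thresholds and alternatives were chosen with earlier results of these data known.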

Additional observations from a re-analysis of the deposited data

How the results depend on the processing

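The rise of Mmp12 and the fall of Plat passed the threshold in each of the 16 alternatives run: the authors' normalized values, 75th percentile scaling, offsets of 16 and 100, no background correction, mode subtraction, both other filters, no intensity trend, the replicate block and 6 fits without 1 array. With each array's background mode subtracted, 2 of 34 tested members were higher and 4 lower (3.85% and 4.96% of 9731 genes); Plaur, Mmp3, Mmp9 and Adam12 were added. With a limit of 1.5-fold, 3 of 47 members were higher and 5 lower, and 0 of 22 partners were higher and 3 lower. Over all tested genes 6.07% were higher and 6.49% lower by that limit. Counting any tested probe gave 2 lower members, by Mmp13, beside 5.38% of all tested genes. Leaving out 1 array gave 1 to 2 lower members, since Mmp9 passed without knockout array 1 or 2, and moved the median over members from -0.0335 to 0.023. That median was 0.0865 with 75th percentile scaling and -0.000525 with no filter. Of 560 values of single probes under these alternatives, 548 kept their side of the threshold, 6 crossed to it, 6 fell short of it and 0 turned their direction while past the test.

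The arrays share numbers between pools in their titles. The deviations of same-numbered arrays from their pool means correlated at 0.11, -0.13 and 0.04, and those of other pairs at -0.19 to 0.14. These values gave no sign of pairing, but with 3 normalized arrays a pool they cannot exclude it. The replicate block left 1 member higher and 1 lower. Dim probes limit these values: 77 of 138 member probes were too dim to be tested.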
